A study of Mus musculus with 18 samples.

Results

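Interferon-stimulated genes were followed in every library of a mouse study of mutant histone H3. A list of 39 such genes, written by symbol from general knowledge, was matched through Ensembl IDs, and all 39 were found among the 37620 gene IDs of the count tables, 32897 of which have a symbol. RNA-seq of polyadenylated RNA was made from 3 tissues, each with K36M, K9M and WT mice, 2 mice per group and 18 libraries in all. K36M and K9M stand for histone H3 with lysine 36 or lysine 9 replaced by methionine, and such histones are known to inhibit methylation of the same lysine. The first tissue was bone marrow stem and progenitor cells (BSPC, cells negative for lineage markers and positive for cKit), and the others were dissociated intestine and dissociated testes. The study used both sexes, without giving the sex of each mouse, and K36M, K9M and WT mice alike were 6 to 8 weeks old, of a mixed C57B6/129 background, and received 2 mg/ml doxycycline in drinking water. The labels give no H3 variant, transgene promoter, driver cell type or length of treatment, and do not say whether WT mice carried a transgene. The same 6 mice gave intestine and testes, K36M.1485, K36M.1553, K9M.1516, K9M.1519, WT.1476 and WT.1477, each named by genotype and number. As donors of testes, these 6 were male. Bone marrow came from 6 other mice, K36M.1310, K36M.1312, K9M.1362, K9M.1363, WT.1262 and WT.1266.

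Interferons are secreted proteins that warn cells of infection. Type I and type III interferons signal through receptor-bound JAK kinases to a complex that holds Stat2 and Irf9 and binds the interferon-stimulated response element (ISRE) in the promoters of its target genes. Target genes of interferon gamma carry a gamma-activated site (GAS). The products degrade viral RNA, block translation or entry, present antigen and amplify or end the signal. In bone marrow, interferon is known to drive dormant stem cells into cycle, and the intestinal epithelium is known to respond to type III interferon. Methylation of H3 lysine 9 is known to silence retroelements, whose double-stranded RNA can be read by the RNA sensors of the same pathway.

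Promoter sequence of RefSeq on GRCm38.p6, from 250 bases before to 50 bases after each gene's start, was at hand for 31 of the 39 genes. An ISRE-like match was taken as GAAA, 2 bases of any kind and GAAA again, or TTTC, 2 bases of any kind and TTTC for the other strand. It occurred in 18 of the 31 genes (58.1%) and in 3.99% of 27025 genes with a promoter in the table. The GAS-like letters TTCNNNGAA, which read alike on both strands, occurred in 11 of the 31 (35.5%) and in 9.55% of all genes with a promoter. Both kinds of match may share bases in a promoter. The upstream stretches around the ISRE-like matches of 6 genes that carry the results below are shown 5′ to 3′ on the strand of the gene, with the matching letters in capitals. They include the 3 overlapping matches of Isg15, and Gbp2 and Gbp3, which share the motif and fell in K36M bone marrow, where Isg15 did not pass the test.
Rsad2, chr12:26456528-26456607, minus strand: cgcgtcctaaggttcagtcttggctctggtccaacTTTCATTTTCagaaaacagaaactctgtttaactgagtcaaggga
Isg15, chr4:156200840-156200931, minus strand: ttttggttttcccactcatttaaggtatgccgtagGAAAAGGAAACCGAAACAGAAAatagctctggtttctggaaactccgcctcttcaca
Oas1a, chr5:120907526-120907580, minus strand: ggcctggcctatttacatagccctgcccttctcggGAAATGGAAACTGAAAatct
Cxcl10, chr5:92349058-92349137, minus strand: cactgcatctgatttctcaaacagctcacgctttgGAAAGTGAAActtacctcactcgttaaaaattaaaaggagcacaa
Gbp2, chr3:142620569-142620648, plus strand: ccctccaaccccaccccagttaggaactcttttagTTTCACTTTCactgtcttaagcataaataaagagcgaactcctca
Gbp3, chr3:142559964-142560043, plus strand: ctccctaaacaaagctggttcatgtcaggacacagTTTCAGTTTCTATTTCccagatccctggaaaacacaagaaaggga
A match describes letters in these windows and not a bound site.

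The libraries held 13396303 to 21417915 counts in genes. Summed markers of blood progenitors, intestinal epithelium and testis were each high in the tissue of that name, with 2 departures. K36M bone marrow held 3601 and 3151 CPM of the 8 blood stem and progenitor markers, against 12498 and 10340.2 CPM in WT. Mpo is counted both in this list and in the granulocyte and monocyte markers given below, so their sums are not independent. The intestine of mouse WT.1476 held 157 CPM of the 8 testis markers, where mouse WT.1477 held 13.3 CPM. Values below are counts scaled to a common library total (CPM), with factors set by TMM within a tissue, with the 2 mice of a group given in the order of their numbers, and log2 fold changes ± SE. Rose and fell are used of a gene for which edgeR's quasi-likelihood test, adjusted by Benjamini-Hochberg over all genes tested, gave p under 0.05. Both mutants were compared with the same WT libraries, so the comparisons with WT are not independent. In bulk RNA, fewer cells of a type and less RNA per cell cannot be told apart. The heatmap of levels shows all 39 genes in every library.

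**Figure D1:**
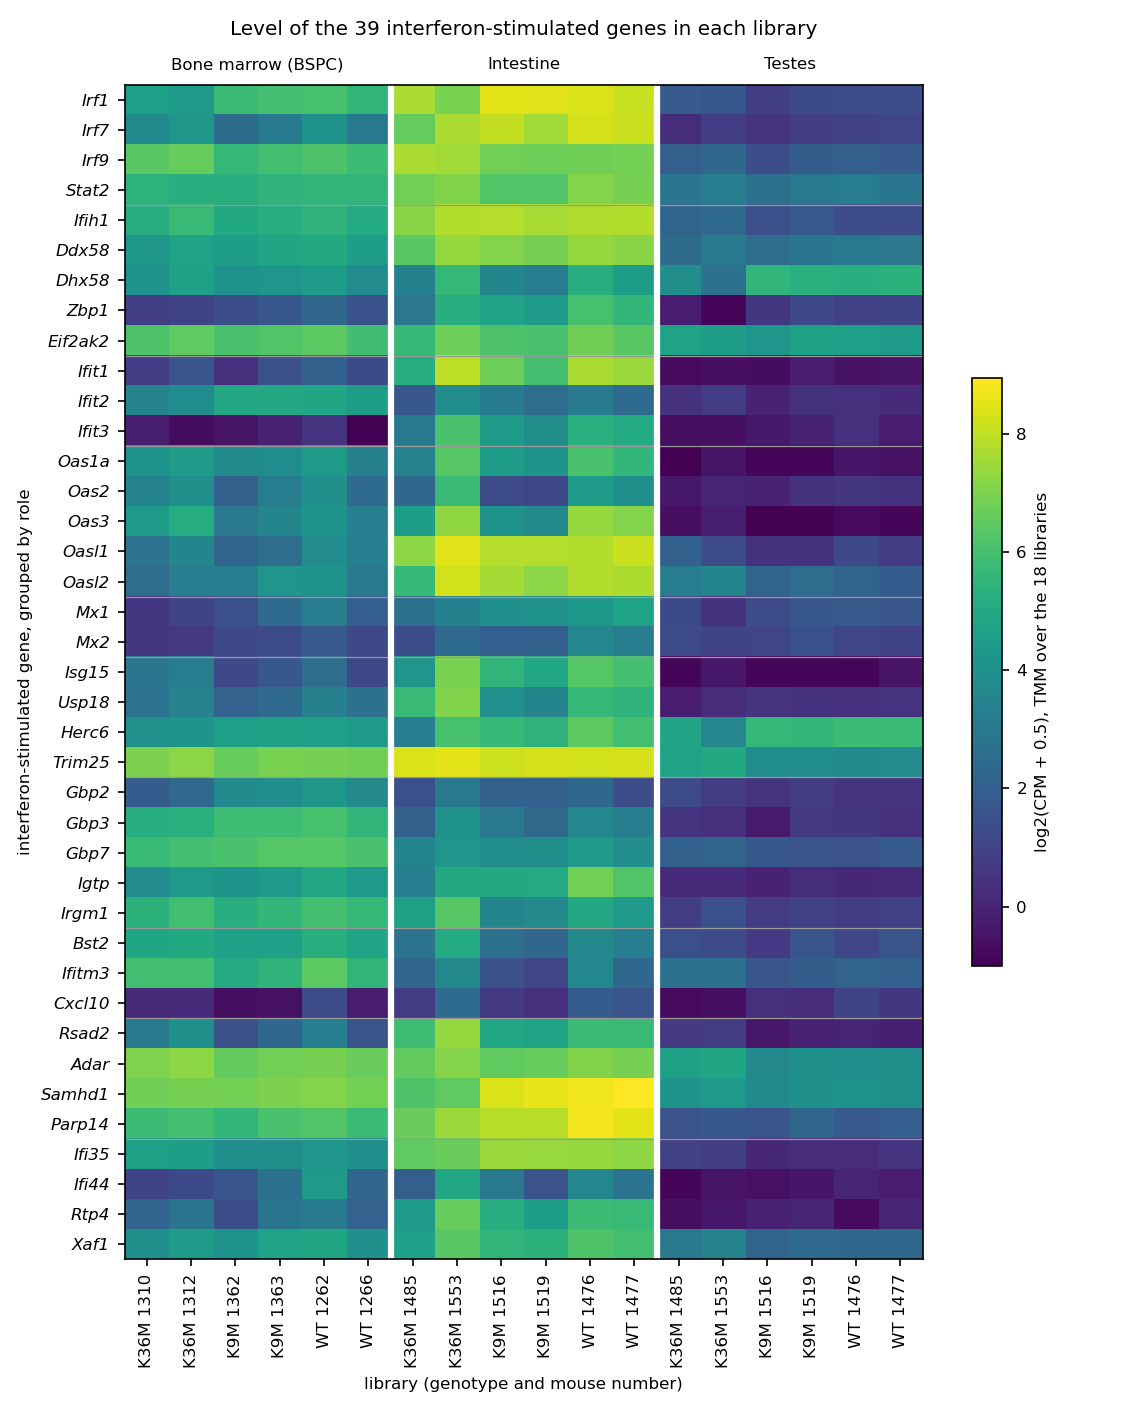
Level of each of the 39 genes (rows, grouped by role) in each of the 18 libraries (columns, by tissue, genotype and mouse), as log2(CPM + 0.5) with TMM scaling over all libraries. The intestine is bright for most genes and the testes dark except for Dhx58, Herc6, Eif2ak2, Trim25, Adar and Samhd1, and the column of mouse K36M.1485 in intestine is darker than that of mouse K36M.1553.

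In WT mice, most interferon-stimulated genes stood highest in intestine. Of the 39 genes, 30 had their highest WT level in intestine, 8 in bone marrow (Ifit2, Gbp2, Gbp3, Gbp7, Irgm1, Bst2, Ifitm3 and Ifi44) and Dhx58 alone in testes. Per kilobase of exon, as means over the 2 mice, the highest WT levels in intestine were those of the RNA-binding Oasl1 (69.1 RPKM), the ubiquitin-like Isg15 (64.7), Ifi35 (63.6), and the transcription factors Irf7 (55.0) and Irf1 (53.5). In bone marrow they were those of the membrane proteins Ifitm3 (128 RPKM) and Bst2 (46.7), which block virus entry and release, the ubiquitin ligase Trim25 (26.5), the GTPase Gbp3 (22.5) and the RNA-activated kinase Eif2ak2 (18.8). In testes they were those of the RNA helicase Dhx58 (12.7 RPKM), the ISG15 ligase Herc6 (6.16), Ifitm3 (5.92), Eif2ak2 (4.53) and Bst2 (2.42). In bone marrow, Ifitm3 had 76.8 and 78.6 CPM in K36M mice, 45.7 and 57.9 CPM in K9M mice and 113 and 60.8 CPM in WT mice, with mouse WT.1262 highest. Bst2 had 36.8 and 42.2 CPM in K36M mice, 33.9 and 34.0 CPM in K9M mice and 48.5 and 35.9 CPM in WT mice, with the K9M mice lowest. Trim25 had 159.9 and 192 CPM in K36M mice, 132 and 162 CPM in K9M mice and 159 and 146 CPM in WT mice, with K36M mice just above WT mice and K9M mice overlapping both. Eif2ak2 had 91.7 and 118 CPM in K36M mice, 90.7 and 99.0 CPM in K9M mice and 114 and 79.0 CPM in WT mice, and the groups overlapped.

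Scaled over the 18 libraries, 36 of 39 genes were higher in WT intestine than in WT testes and 0 lower, where 33.2% of all genes tested were higher and 48.2% lower. The median log2 difference over the 39 was 4.56, against -0.72 over all genes. Ifi35 averaged 158 ± 9.37 CPM in intestine and 0.820 ± 0.179 CPM in testes (SD, n = 2 each), a log2 difference of 7.56 ± 0.20 (adjusted p = 3.33e-12) in edgeR's test. Trim25 (4.56), Samhd1 (4.89), which cleaves deoxynucleotides, and Irf1 (7.26) followed in order of adjusted p. Dhx58, Herc6 and the chemokine gene Cxcl10 did not pass. Between bone marrow and testes, 32 genes were higher in bone marrow and 0 lower, where 33.6% of all genes were higher and 48.6% lower. The smallest adjusted p there belonged to Ifi35 (4.27 on the log2 scale), Trim25 (3.13), Irf9 (4.25) and Gbp7 (4.73).

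Against WT intestine, WT bone marrow was higher in 7 genes and lower in 26, where 29.4% of all genes were higher and 34.8% lower. The 7 were Ifit2, Gbp2, Gbp3, Gbp7, Irgm1, Bst2 and Ifitm3, of which the last averaged 65.6 ± 27.8 CPM in bone marrow and 8.33 ± 5.32 CPM in intestine (SD, n = 2 each). Its log2 difference was 2.96 ± 0.46 (adjusted p = 7.18e-05) by edgeR, with Gbp7 at 2.10, Gbp3 at 2.42 and Gbp2 at 2.21. The lower genes with the smallest adjusted p were Ifi35 (-3.28), Samhd1 (-1.86), the RNA sensor Ifih1 (-2.52) and Irf1 (-2.46). With library size alone as the scale, the median over all genes moved to 0.45, with 43.2% higher and 23.9% lower, and the split over the 39 genes became 8 higher and 20 lower. DESeq2's size factors moved the median over all genes to -1.06 for intestine against testes and to -1.07 for bone marrow against testes, and the splits over the 39 became 35 and 0, and 31 and 2.

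In each bone marrow group, 1 of the 2 mice was higher in most of the 39 genes. In WT bone marrow, mouse WT.1262 was above mouse WT.1266 in 37 of the 38 genes with counts in both, with a median log2 ratio of 0.62, where the median over all genes was 0.0014. Ifit3 had 26 counts in mouse WT.1262 and 0 in mouse WT.1266, which allows up to 3 counts there. At least 2-fold higher in mouse WT.1262 were 11 of the 39 genes, where 2.13% of 14470 genes were. That these WT mice differ was known before the list was set out per library. The counts describe the difference and are no test of it. The other bone marrow pairs spread less, with 35 of 39 genes lower in mouse K36M.1310 than in mouse K36M.1312 (median log2 ratio -0.37) and 36 of 39 lower in mouse K9M.1362 than in mouse K9M.1363 (-0.29). The plot of ratios between the mice of a group shows most of the list shifted in these pairs.

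**Figure D2:**
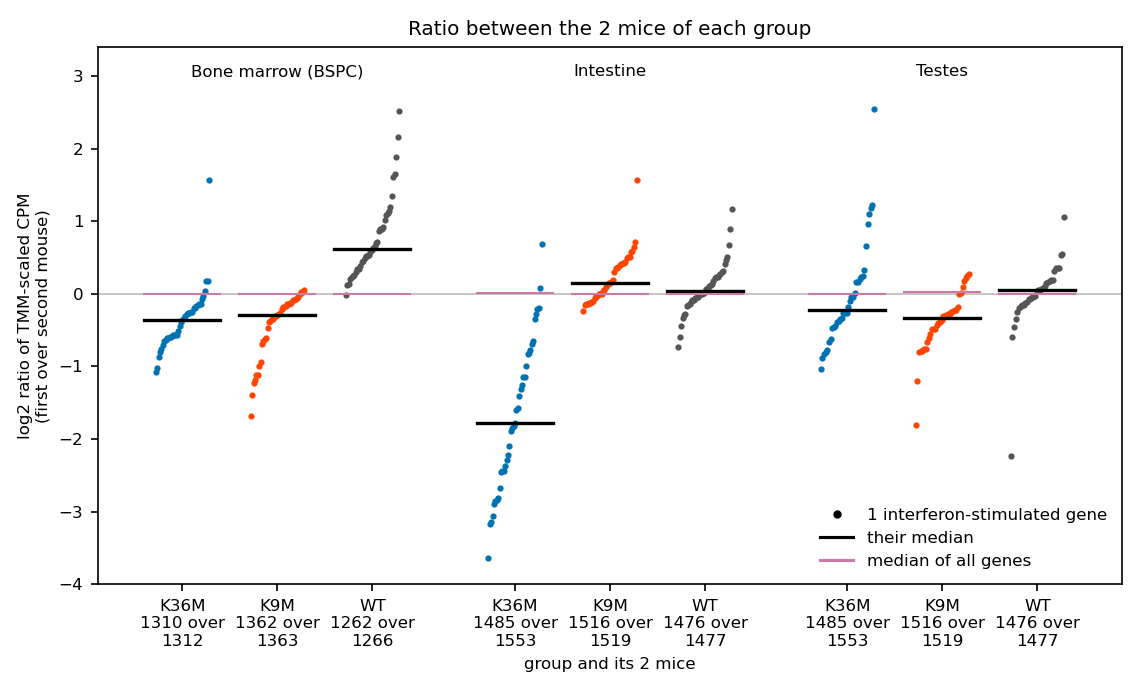
Log2 ratio of TMM-scaled CPM between the 2 mice of each group, first over second, for each of the 39 genes (dots; 34 in testes) with their median (black) and the median of all genes (pink). The genes lie mostly above 0 in WT bone marrow (median 0.62) and mostly below 0 in K36M intestine (median -1.77), and near 0 in WT intestine (0.04) and WT testes (0.05).

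Of the genes with a mean of at least 1 CPM over the 6 bone marrow libraries, the 8 that differed most between the WT mice were effector genes, with the factor Irf7 beside them. Cxcl10, whose mean over the 6 was lower, differed 5.71-fold between the WT mice, on 56 and 10 counts. Ifi44, an interferon-inducible protein of the cytoplasm, had 1.98 and 2.38 CPM in K36M mice, 3.62 and 7.89 CPM in K9M mice and 25.9 and 5.79 CPM in WT mice. Mouse WT.1262 was alone at that level, and mouse WT.1266 lay between the K9M mice. Rsad2, which makes a chain-ending nucleotide that stops viral RNA synthesis, had 9.67 and 20.3 CPM in K36M mice, 3.05 and 6.07 CPM in K9M mice and 12.0 and 3.26 CPM in WT mice. Both K36M mice and mouse WT.1262 were high, and mouse WT.1266 and mouse K9M.1362 were low. Isg15 had 9.02 and 11.3 CPM in K36M mice, 2.42 and 3.68 CPM in K9M mice and 7.08 and 2.25 CPM in WT mice. Here both K36M mice lay above all others, and the WT mice spanned the K9M mice.

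Oas2, whose product makes the oligoadenylates that switch on RNase L, had 13.2 and 20.2 CPM in K36M mice, 4.89 and 11.4 CPM in K9M mice and 20.4 and 6.71 CPM in WT mice, and the WT mice lay on either side of all mutant mice but mouse K9M.1362. The GTPase gene Mx1 had 1.29 and 2.00 CPM in K36M, 2.93 and 6.65 CPM in K9M and 11.4 and 4.46 CPM in WT. Its K36M values lay below those of all other mice. The OAS-like gene Oasl2 had 6.94 and 11.7 CPM in K36M mice, 12.1 and 23.3 CPM in K9M mice and 22.2 and 9.66 CPM in WT mice, with K36M mice below K9M mice and the WT mice overlapping both. Oas1a, another oligoadenylate synthetase, had 21.3 and 27.7 CPM in K36M mice, 17.4 and 18.5 CPM in K9M mice and 27.7 and 12.6 CPM in WT mice, and mouse WT.1266 was lowest of the 6. Irf7, which amplifies type I interferon transcription, had 16.3 and 24.2 CPM in K36M mice, 7.07 and 11.1 CPM in K9M mice and 21.7 and 9.98 CPM in WT mice, so that K36M and K9M mice lay apart while the WT mice reached across both. The plot of bone marrow values shows the same 8 genes.

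**Figure D3:**
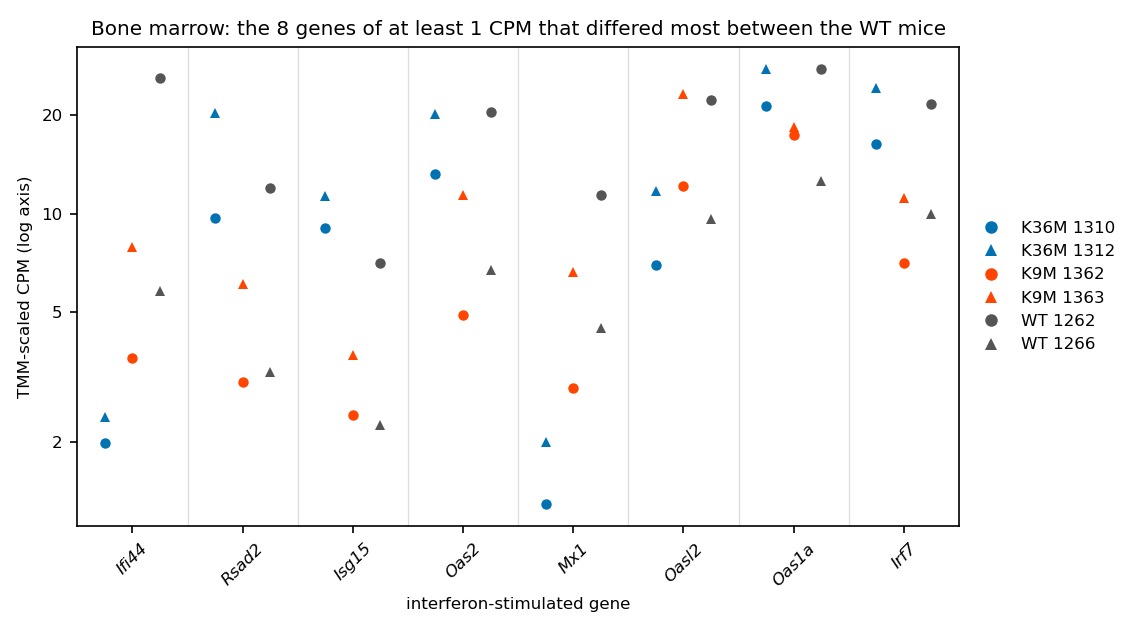
TMM-scaled CPM (log axis) in each bone marrow library of the 8 genes picked for the largest fold difference between the WT mice. K36M, K9M and WT run from left to right within a gene, with 1 symbol per mouse. The WT circle (mouse WT.1262) lies above the WT triangle (mouse WT.1266) in all 8 genes, from 25.9 against 5.79 CPM for Ifi44 to 21.7 against 9.98 CPM for Irf7.

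Markers of other cells also differed between these WT mice. The 12 granulocyte and monocyte markers, all with counts in the 6 bone marrow libraries, summed to 5179 and 3861 CPM in K36M, 17718 and 17192 CPM in K9M and 20067 and 15691 CPM in mouse WT.1262 and mouse WT.1266. The 10 erythroid markers, also all counted, summed to 3075 and 3301 CPM in K36M, 1381 and 1093 CPM in K9M and 1078 and 1820.4 CPM in the same WT mice. Of the 10 markers of plasmacytoid dendritic cells, a major source of type I interferon, at most 1 had no count in a library. They summed to 114.8 and 115.0 CPM in K36M, 258 and 288 CPM in K9M and 218 and 174 CPM in these WT mice. Their part in the difference between the mice was not tested.

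In bone marrow, no interferon-stimulated gene passed the test between K9M and WT mice. By edgeR, 0 of the 39 rose and 0 fell, where 0.589% of all genes rose and 0.418% fell; 3 of the 39 had an unadjusted p under 0.05, as did 2079 of 14604 genes, limma-voom called 0 and DESeq2 called 1 lower. The median log2 fold change was -0.19, with 33 of 39 genes below 0, against -0.0019 over all genes. It was 0.08 without mouse WT.1262 and -0.52 without mouse WT.1266. The 3 genes with the smallest p lay lower in K9M mice without passing. Oasl1 had 5.52 and 7.22 CPM in K9M mice, against 17.8 and 12.0 CPM in WT mice, without overlap (-1.22 ± 0.34, adjusted p = 0.195). Cxcl10, a chemokine that draws T cells, had 0.230 and 0.239 CPM in K9M mice, against 2.63 and 0.460 CPM in WT mice (-2.68 ± 0.87, adjusted p = 0.246). Usp18, which removes ISG15 and damps the interferon receptor, had 5.29 and 6.70 CPM in K9M mice, against 12.6 and 7.95 CPM in WT mice (-0.77 ± 0.31, adjusted p = 0.332).

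K36M bone marrow differed from WT in 11 of the 39 genes, of which 2 rose and 9 fell. Those that fell were Irf1, the Z-form nucleic acid sensor Zbp1, Ifit2, both Mx genes, Herc6 and the 3 GBP genes among the 39. Those that rose were Irf9 and Ifi35. Over all genes tested, 23.5% rose and 24.6% fell, so the share of the 39 that fell (23.1%) was close to that of all genes and the share that rose (5.13%) was below it. The median log2 fold change was -0.19, against -0.02 over all genes.

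Gbp2, a GTPase that attacks the vacuoles of intracellular pathogens, had 4.11 and 6.21 CPM in K36M mice, 17.0 and 18.7 CPM in K9M mice and 24.5 and 16.2 CPM in WT mice. Both K36M mice lay below the other 4, a log2 fold change against WT of -1.98 ± 0.26 (adjusted p = 0.00102). Its neighbour Gbp3 had 46.0 and 51.2 CPM in K36M mice, 78.3 and 77.1 CPM in K9M mice and 86.4 and 60.3 CPM in WT mice, again with both K36M mice lowest (-0.60 ± 0.17, adjusted p = 0.0256). Gbp7, the third of the family, was lower by less, at -0.41 ± 0.13 (adjusted p = 0.0412). Ifit2, which binds viral RNA, had 13.2 and 17.9 CPM in K36M mice, 42.8 and 42.0 CPM in K9M mice and 37.5 and 30.5 CPM in WT mice, and the K36M mice did not reach the others (-1.13 ± 0.16, adjusted p = 0.00115). Irf1, the factor that drives GBP genes and antigen presentation, had 30.4 and 26.8 CPM in K36M mice, 74.1 and 83.3 CPM in K9M mice and 87.3 and 60.1 CPM in WT mice. Its K36M values lay below all others (-1.36 ± 0.19, adjusted p = 0.00185).

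Herc6 had 20.6 and 22.6 CPM in K36M mice, 32.4 and 33.3 CPM in K9M mice and 31.5 and 28.6 CPM in WT mice, a small fall without overlap (-0.48 ± 0.10, adjusted p = 0.0065). Mx2 had 1.29 and 1.44 CPM in K36M mice, 2.42 and 2.53 CPM in K9M mice and 3.94 and 2.39 CPM in WT mice, and both K36M values were lowest (-1.21 ± 0.32, adjusted p = 0.016). Zbp1 had 1.69 and 2.00 CPM in K36M mice, 2.82 and 3.63 CPM in K9M mice and 5.72 and 3.13 CPM in WT mice, also with both K36M values lowest (-1.26 ± 0.34, adjusted p = 0.0174), and Mx1, given above, fell with them (-2.27 ± 0.62, adjusted p = 0.0274). Among the genes that rose, Ifi35 had 31.3 and 30.4 CPM in K36M mice, 20.5 and 19.8 CPM in K9M mice and 23.2 and 19.5 CPM in WT mice, with both K36M mice highest (0.53 ± 0.12, adjusted p = 0.0072). Irf9, the DNA-binding partner of Stat2, had 107 and 130.1 CPM in K36M mice, 65.6 and 80.7 CPM in K9M mice and 93.5 and 73.7 CPM in WT mice, likewise with the K36M mice above the rest (0.51 ± 0.16, adjusted p = 0.0398). None of the 5 OAS genes passed, with a median log2 fold change of 0.28, and Ifi44 missed the threshold at -2.86 ± 0.89 (adjusted p = 0.0555).

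The WT mice of bone marrow bear on these counts. Without mouse WT.1262, 4 genes rose and 6 fell, the median log2 fold change turned to 0.15, and Gbp7, Mx1, Mx2 and Zbp1 no longer passed. Without mouse WT.1266, 1 rose and 15 fell, Irf9 no longer passed, and the median log2 fold change moved to -0.54. Without mouse K36M.1310 the split was 3 and 4, and without mouse K36M.1312 it was 1 and 5. Gbp2, Irf1 and Ifi35 passed in all 15 alternatives. The granulocyte and monocyte markers, given above, were lower in both K36M mice than in the other 4 libraries, and their part in these changes was not tested.

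Between the mutants in bone marrow, 5 genes were higher in K36M than in K9M and 6 lower, where 26% of all genes were higher and 27.8% lower. The median log2 difference was 0.18, against -0.03 over all genes, and it turned to -0.17 without mouse K9M.1362 and to -0.07 without mouse K36M.1312. The lower genes were Ifit2 (-1.45 ± 0.16, adjusted p = 0.00031), Irf1 (-1.46), Gbp2 (-1.80), Herc6 (-0.61), Gbp3 (-0.68) and Gbp7 (-0.43). Gbp7 had 65.3 and 80.5 CPM in K36M mice, against 91.0 and 105 CPM in K9M mice. Higher in K36M were Ifi35 (0.62 ± 0.12, adjusted p = 0.00307), Irf9 (0.70), the RNA-editing enzyme Adar (0.39), Isg15 (1.73) and Oas3 (1.52). Adar had 166 and 198 CPM in K36M mice, against 126 and 151 CPM in K9M mice, without overlap. Oas3 had 26.5 and 45.9 CPM in K36M mice, against 9.89 and 15.2 CPM in K9M mice, also without overlap. Fitted on these 2 genotypes alone, 20 genes passed, and 8356 of all genes did, against 7850 in the main fit. Without either WT mouse, more genes passed than in the main fit, among the interferon-stimulated genes and over all genes. Without mouse K9M.1362, mouse K9M.1363 or mouse K36M.1312, fewer passed, again in both sets. Without mouse K36M.1310, fewer passed over all genes but not among the interferon-stimulated genes.

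The plot of fold changes sets the 3 tissues side by side. In K36M mice, Irf9 (higher) and Mx1 (lower) passed in both bone marrow and intestine, and Herc6 and Zbp1 (both lower) in both bone marrow and testes. Ifi35 passed as higher in bone marrow and as lower in intestine, a difference between these tissues that was not tested.

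**Figure D4:**
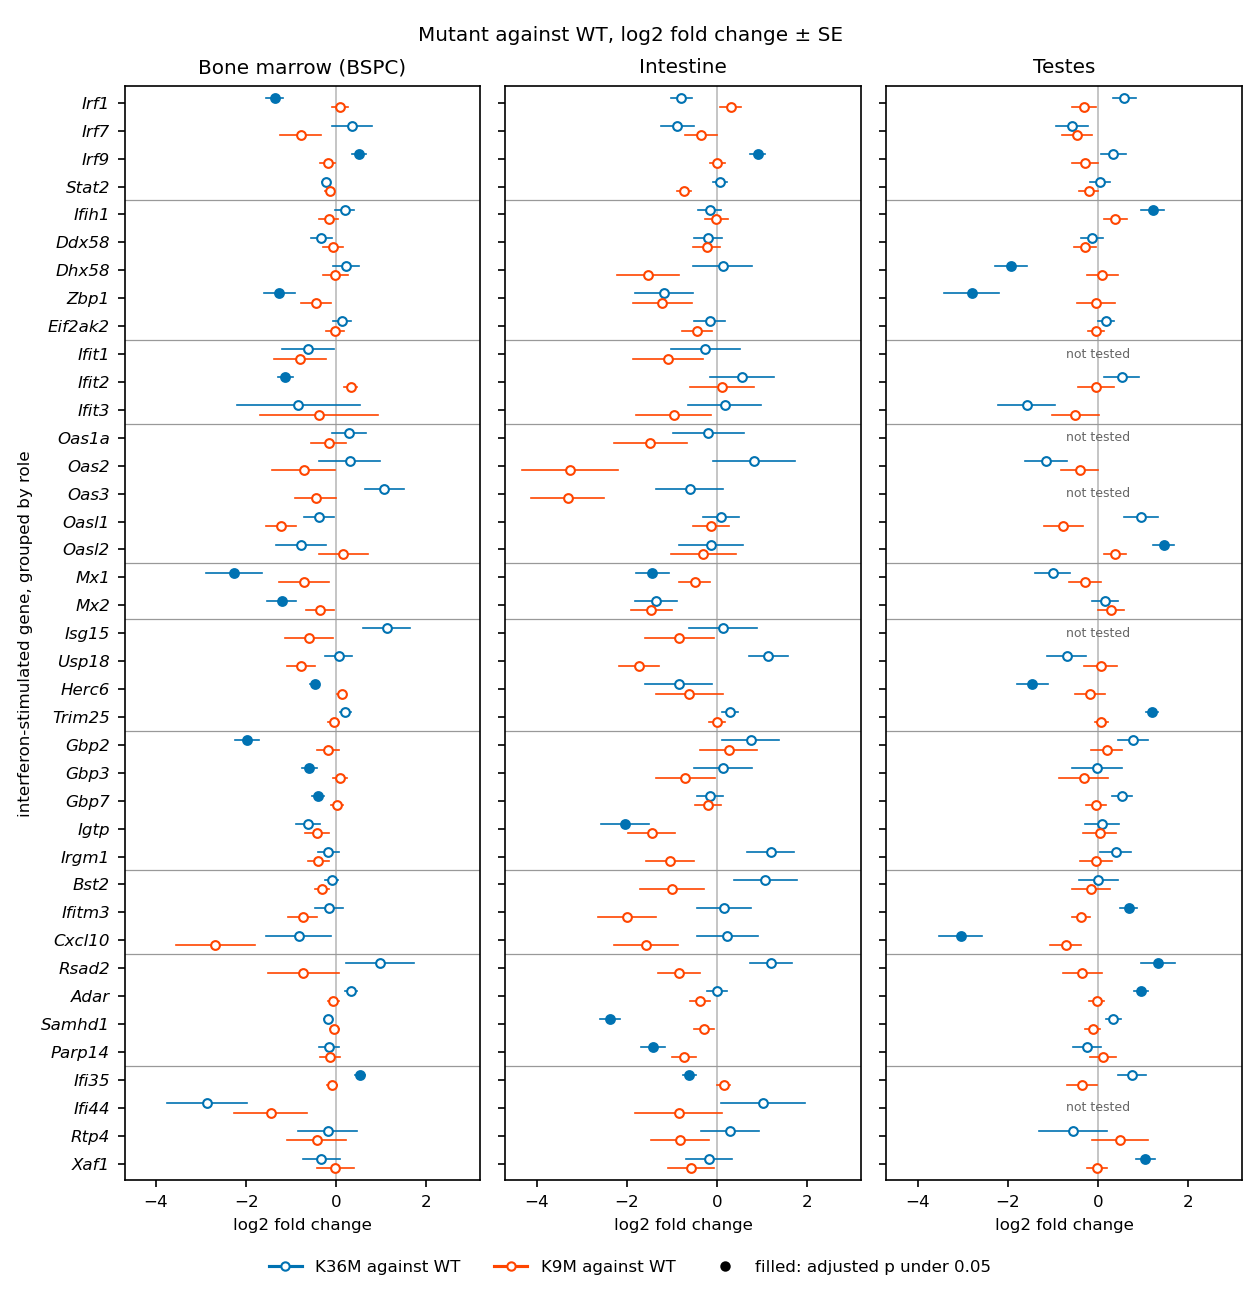
Log2 fold change ± SE against WT of the 39 genes (rows, grouped by role) in K36M (blue) and K9M (orange) mice, by tissue; filled points have an adjusted p under 0.05 by edgeR. Filled points are all K36M, 11 in bone marrow, 6 in intestine and 11 in testes, where 5 genes were not tested.

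The K36M mice of intestine stood apart from each other more than the mice of any of the other 8 groups did. Mouse K36M.1485 was below mouse K36M.1553 in 37 of 39 genes, with a median log2 ratio of -1.77, and 27 of the 39 were at least 2-fold higher in mouse K36M.1553, where 6.94% of 14123 genes were. The library of mouse K36M.1485 had 17.3% of its reads in no feature and 13396303 counts in genes, the fewest of the 18, where that of mouse K36M.1553 had 12.0% and 15234722, and the part of this in the difference was not tested. Oas2 differed 12.5-fold, Ifit3 8.97-fold, Ifi44 8.82-fold and Oas1a 8.36-fold. The exceptions were Irf1, at a log2 ratio of 0.69, and Irf9, at 0.08. Of the 11 genes that were at least 2-fold higher in mouse WT.1262 than in mouse WT.1266 in bone marrow, 10 were among these 27, which is 90.9% of the first list and 37.0% of the second, where the second holds 27 of all 39 genes. Among the 31 genes with a promoter at hand, the median ratio in K36M intestine was -1.86 for the 18 with an ISRE-like match and -1.14 for the 13 without. The ranges overlapped, from -3.17 to -0.28 with a match and from -3.14 to 0.69 without. In WT bone marrow the medians were 0.60 with a match (17 genes with a ratio) and 0.34 without (13 genes). The order was the other way in K9M bone marrow, at -0.20 with and -0.29 without, and in K36M testes, at -0.07 and -0.30.

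Some marker lists also differed between the same K36M mice. The 17 macrophage and dendritic cell markers, of which 1 to 3 had no count in a given intestine library, summed to 253 and 96.8 CPM in mouse K36M.1485 and mouse K36M.1553, 55.1 and 55.5 CPM in K9M and 686 and 218 CPM in WT. The 13 T and NK cell markers, all counted, summed to 68.1 and 47.6 CPM in K36M, 348 and 449.6 CPM in K9M and 423 and 448 CPM in WT. The 10 erythroid markers summed to 194 and 439 CPM in K36M, 63.7 and 53.9 CPM in K9M and 189 and 84.8 CPM in WT. The 6 fibroblast markers summed to 41.5 and 8.74 CPM in K36M, 2.18 and 3.09 CPM in K9M and 5.48 and 0.407 CPM in WT. The 9 B and plasma cell markers summed to 30.6 and 7.28 CPM in K36M, 8.34 and 3.37 CPM in K9M and 6.84 and 2.78 CPM in WT, and the 8 mast cell and basophil markers, 6 of them at 0 in each K36M mouse, to 149.8 and 66.7 CPM in K36M, 65.9 and 61.7 CPM in K9M and 69.2 and 65.0 CPM in WT. Macrophage, fibroblast, B cell and mast cell markers were higher in mouse K36M.1485, whose interferon-stimulated genes were lower, and erythroid markers were higher in mouse K36M.1553. The 6 proliferation markers, at 368 and 369 CPM, were alike in both K36M mice. They summed to 42.4 and 62.7 CPM in K9M and to 191 and 63.6 CPM in WT, below both K36M mice. The part of these markers in the difference was not tested.

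In intestine, K9M mice held most interferon-stimulated genes below WT mice, but 0 of 39 rose and 0 fell by edgeR, where 0.147% of all genes rose and 0.0632% fell. Unadjusted p was under 0.05 in 8 of the 39 and in 1469 of 14246 genes. The median log2 fold change was -0.74, with 33 of 39 below 0, against -0.01 over all genes. In 29 of the 39 genes both K9M mice lay below both WT mice, where 23.7% of all genes did. By role, the medians were -1.48 for the OAS genes, -1.58 for the membrane and secreted proteins, -0.96 for the IFIT genes and -0.18 for the transcription factors. DESeq2 called 3 genes and limma-voom 0, and edgeR called 9 with K9M and WT fitted alone and 17 without a filter on low counts. Over all genes, these settings called 363, 26, 202 and 1180, where the main fit called 30. Leaving out either K36M mouse, which enters this fit through the shared spread, gave a median log2 fold change of -0.73. More genes were then called, among the 39 (all lower) and over all genes.

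Stat2, which brings a transactivating domain to the complex with Irf9, had 52.9 and 54.2 CPM in K9M mice, against 87.8 and 90.8 CPM in WT mice. The groups did not overlap (-0.74 ± 0.15, adjusted p = 0.174). Oas3, which makes long oligoadenylates, had 11.8 and 9.26 CPM in K9M mice, against 107 and 104 CPM in WT mice, a wide gap that did not pass the adjusted threshold (-3.32 ± 0.82, adjusted p = 0.244). Usp18 had 11.2 and 8.00 CPM in K9M mice, against 31.1 and 33.0 CPM in WT mice (-1.73 ± 0.45, adjusted p = 0.26). Irf1 went the other way, with 261 and 263 CPM in K9M mice, against 217 and 208 CPM in WT mice, and did not pass.

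In K36M intestine, Irf9 rose and 5 genes fell against WT, where 11.7% of all genes rose and 11.7% fell. The median log2 fold change over the 39 was -0.01. Samhd1, which limits viral DNA synthesis by cleaving deoxynucleotides, had 54.6 and 69.4 CPM in K36M mice, 242 and 285 CPM in K9M mice and 274 and 372 CPM in WT mice. Both K36M mice lay far below the other 4 (-2.38 ± 0.23, adjusted p = 0.00241), and this call held in all 15 alternatives. Parp14, a mono-ADP-ribosyl transferase, had 74.6 and 133 CPM in K36M mice, 164 and 170.4 CPM in K9M mice and 278 and 279 CPM in WT mice, with the K36M mice lowest (-1.42 ± 0.27, adjusted p = 0.0149). Ifi35 had 66.8 and 76.8 CPM in K36M mice, 122 and 122 CPM in K9M mice and 105 and 114 CPM in WT mice, a fall here where it rose in K36M bone marrow (-0.61 ± 0.15, adjusted p = 0.0298). Mx1 had 4.33 and 7.59 CPM in K36M mice, 10.9 and 12.1 CPM in K9M mice and 12.2 and 20.2 CPM in WT mice, again with K36M lowest (-1.44 ± 0.36, adjusted p = 0.0345).

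Igtp, an immunity-related GTPase of vacuole defence, had 6.65 and 24.6 CPM in K36M mice, 22.9 and 24.5 CPM in K9M mice and 71.6 and 57.6 CPM in WT mice. K36M mice lay below WT but reached the K9M values (-2.04 ± 0.53, adjusted p = 0.0379 against WT). Irf9 had 152 and 145 CPM in K36M mice, 80.8 and 78.6 CPM in K9M mice and 69.9 and 88.4 CPM in WT mice, with both K36M mice highest (0.91 ± 0.16, adjusted p = 0.013). Calls in intestine changed with single mice. Without mouse K36M.1485, 10 genes rose and 4 fell with a median of 0.55, and without mouse K36M.1553, 1 rose and 22 fell with a median of -1.29. Ifi35, Igtp, Mx1 and Parp14 did not pass without mouse WT.1476 or without mouse WT.1477, Irf9 did not without mouse WT.1476, and Ifi35 and Mx1 did not without mouse K36M.1485. Without either WT mouse or either K9M mouse, fewer genes passed, among the interferon-stimulated genes and over all genes. The loss of calls was thus not particular to the interferon-stimulated genes. Their median log2 fold change moved little in these fits. It was -0.065 without mouse WT.1476 and without mouse WT.1477, -0.02 without mouse K9M.1516 and -0.03 without mouse K9M.1519.

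Between the mutants in intestine, 6 genes were higher in K36M than in K9M and 3 lower, where 12.2% of all genes were higher and 12.9% lower. The median log2 difference was 0.45, and it turned to -0.58 without mouse K36M.1553. Usp18 had 38.7 and 102 CPM in K36M mice, against 11.2 and 8.00 CPM in K9M mice (2.87 ± 0.46, adjusted p = 0.00906). Oas2 had 3.29 and 41.0 CPM in K36M mice, against 1.35 and 1.26 CPM in K9M mice, without overlap in spite of the gap between the K36M mice (4.09 ± 1.09, adjusted p = 0.0377). Rsad2 had 42.0 and 127 CPM in K36M mice, against 21.6 and 19.3 CPM in K9M mice (2.05 ± 0.48, adjusted p = 0.0255). The GTPase gene Irgm1 had 18.2 and 62.3 CPM in K36M mice, against 8.13 and 8.92 CPM in K9M mice (2.24 ± 0.55, adjusted p = 0.0291). Stat2 had 84.5 and 102 CPM in K36M mice, which put it above K9M (0.80 ± 0.15, adjusted p = 0.0143), and Irf9 was higher too (0.90). Lower in K36M were Samhd1 (-2.09), Irf1 (-1.09) and Ifi35 (-0.76), and Irf1 had 152 and 94.0 CPM in K36M mice, below all others. Without mouse K36M.1485, 23 genes were higher and 3 lower, and without mouse K36M.1553, 7 were higher and 16 lower. Without either K9M mouse, 1 gene passed. With library size alone as the scale, 14.4% of all genes were higher and 9.84% lower, and 7 of the 39 were higher and 3 lower. The plot of intestine values shows these genes by mouse.

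**Figure D5:**
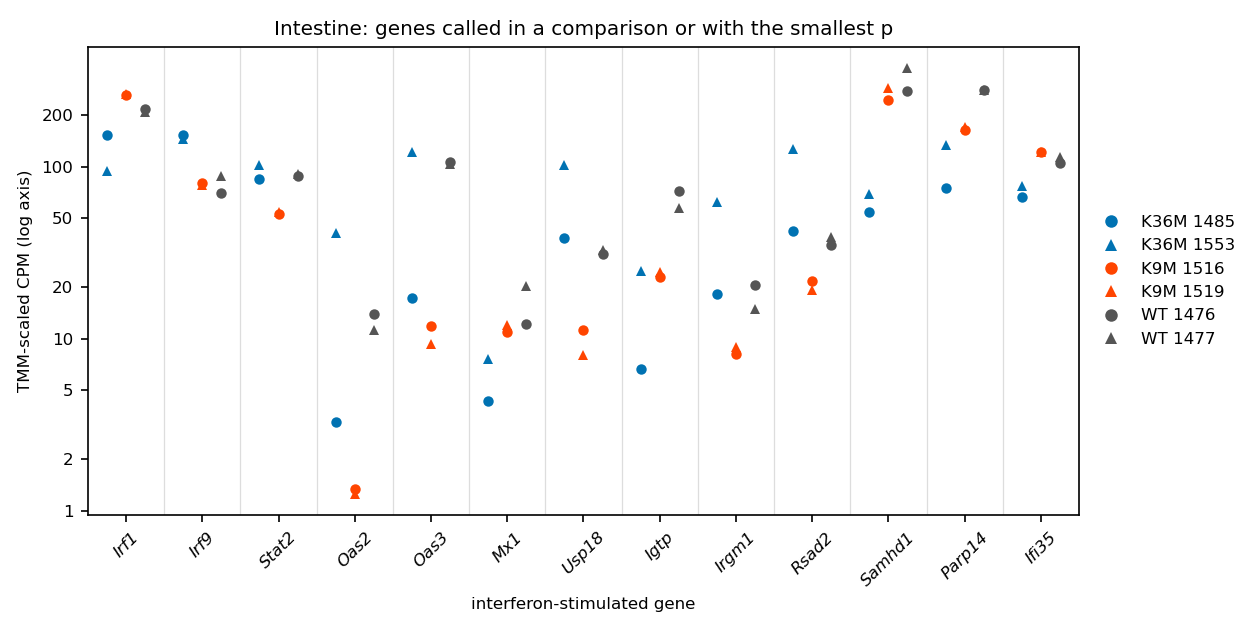
TMM-scaled CPM (log axis) of 13 genes in each intestine library, K36M, K9M and WT from left to right within a gene, with 1 symbol per mouse. The K36M triangle (mouse K36M.1553) lies above the K36M circle (mouse K36M.1485) except in Irf1 and Irf9, and both K36M symbols are lowest in Samhd1, with 54.6 and 69.4 CPM.

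Other genes at high level in WT intestine did not pass between any of the genotypes. Oasl1 had 113 and 271 CPM in K36M mice, 163 and 166 CPM in K9M mice and 144 and 217 CPM in WT mice, and the K36M mice lay on either side of all others. Isg15 had 13 and 94.1 CPM in K36M mice, 32.8 and 21.8 CPM in K9M mice and 50.7 and 47.1 CPM in WT mice, with the K36M mice again at the extremes. Irf7 had 70.3 and 155 CPM in K36M mice, 185 and 138 CPM in K9M mice and 203 and 212 CPM in WT mice, with WT mice above the rest.

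In testes, Ifit1, Oas1a, Oas3, Isg15 and Ifi44 had too few counts to be tested. K9M testes gave no call among the remaining 34, with 0 higher and 0 lower where 0.0261% of all genes rose and 0.0418% fell by edgeR. None of the 34 had an unadjusted p under 0.05, as 539 of 19160 genes did, and DESeq2 and limma-voom called 0. The median log2 fold change was -0.08, against 0.01 over all genes. The smallest p belonged to Cxcl10 (-0.72 on the log2 scale), Ifitm3 (-0.38) and Oasl1 (-0.77), each with an adjusted p of 1.0. Oasl1 had 3.96 and 2.03 CPM in K36M mice, 0.909 and 0.905 CPM in K9M mice and 1.86 and 1.27 CPM in WT mice, and K9M mice were lowest.

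K36M testes differed from WT in 11 of 34 genes, with 7 higher and 4 lower, where 25.7% of all genes rose and 23.8% fell. The higher genes took in Ifih1, Oasl2, Trim25, Ifitm3, Rsad2, Adar and Xaf1, and the lower ones the sensors Dhx58 and Zbp1 with Herc6 and Cxcl10. The median log2 fold change was 0.17, against 0.02 over all genes. Trim25, the ubiquitin ligase that activates RIG-I, had 28.7 and 34.5 CPM in K36M mice, 14.4 and 14.5 CPM in K9M mice and 13.4 and 14.1 CPM in WT mice. K36M mice lay above all others (1.20 ± 0.14, adjusted p = 0.0026). Adar had 26.3 and 31.6 CPM in K36M mice, 13.2 and 15.9 CPM in K9M mice and 14.5 and 15.2 CPM in WT mice, with the same order (0.96 ± 0.16, adjusted p = 0.00524). Oasl2 had 9.05 and 11.7 CPM in K36M mice, 4.31 and 5.52 CPM in K9M mice and 4.26 and 3.33 CPM in WT mice, also highest in K36M (1.46 ± 0.23, adjusted p = 0.00485).

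Ifih1, also called MDA5, had 4.32 and 5.49 CPM in K36M mice, 2.34 and 3.17 CPM in K9M mice and 2.16 and 2.06 CPM in WT mice, with both K36M mice highest (1.21 ± 0.25, adjusted p = 0.01). Xaf1, which promotes apoptosis, had 8.16 and 11.3 CPM in K36M mice, 4.21 and 4.98 CPM in K9M mice and 4.62 and 4.74 CPM in WT mice, without overlap (1.05 ± 0.22, adjusted p = 0.00927). Ifitm3 had 6.48 and 6.41 CPM in K36M mice, 2.77 and 3.39 CPM in K9M mice and 4.08 and 3.94 CPM in WT mice (0.68 ± 0.19, adjusted p = 0.0244 against WT). Rsad2 had 1.14 and 1.29 CPM in K36M mice, 0.287 and 0.452 CPM in K9M mice and 0.540 and 0.422 CPM in WT mice, from 6 to 21 counts a library (1.34 ± 0.37, adjusted p = 0.0246).

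Dhx58, also called LGP2, was the member with the highest level per length in WT testes. It had 15.3 and 6.53 CPM in K36M mice, 48.6 and 40.4 CPM in K9M mice and 39.9 and 43.0 CPM in WT mice, and both K36M mice were lowest (-1.92 ± 0.36, adjusted p = 0.00771). Herc6 had 28.9 and 12.7 CPM in K36M mice, 52.0 and 48.9 CPM in K9M mice and 58.1 and 56.4 CPM in WT mice, in the same order (-1.46 ± 0.34, adjusted p = 0.0153). Zbp1 had 0.360 and 0.0616 CPM in K36M mice, 1.10 and 1.86 CPM in K9M mice and 1.44 and 1.59 CPM in WT mice (-2.80 ± 0.61, adjusted p = 0.0113), with 6 counts and 1 count behind the K36M values. Cxcl10 had 0.120 and 0.185 CPM in K36M mice, 0.861 and 0.724 CPM in K9M mice and 1.56 and 1.08 CPM in WT mice, with 2 and 3 counts in the K36M mice and 26 and 23 in the WT mice (-3.05 ± 0.48, adjusted p = 0.00468). Eif2ak2 had 28.4 and 24.2 CPM in K36M mice, 19.2 and 25.4 CPM in K9M mice and 24.7 and 21.6 CPM in WT mice, and the groups overlapped. Bst2 had 2.34 and 2.10 CPM in K36M mice, 1.20 and 2.76 CPM in K9M mice and 1.74 and 2.63 CPM in WT mice, also with overlap.

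Trim25 and Cxcl10 passed under every alternative that gave them a value. Without mouse WT.1476, Adar, Herc6, Ifih1, Ifitm3, Rsad2, Xaf1 and Zbp1 did not pass, and without mouse WT.1477, Dhx58, Herc6, Ifih1, Ifitm3, Oasl2, Rsad2, Xaf1 and Zbp1 did not, which left 4 and 3 genes. The 8 testis markers summed to 13739 and 20047 CPM in K36M, 8104 and 7559.9 CPM in K9M and 7306 and 7485 CPM in WT, and the 6 fibroblast markers to 170.4 and 165 CPM in K36M, 95.2 and 101 CPM in K9M and 84.6 and 85.1 CPM in WT. Proliferation markers summed to 280.0 and 133 CPM in K36M, 489.8 and 463 CPM in K9M and 476 and 457 CPM in WT. The part of these cell markers in the changes was not tested. Against K9M, K36M testes were higher in 10 genes and lower in 4, where 25.4% of all genes were higher and 23.9% lower. These were the 11 genes above with Irf1 (0.90), Oasl1 (1.72) and Ifi35 (1.11) added among the higher. Without mouse K9M.1516 no gene passed, and without mouse K9M.1519, 4 did. Irf1 had 3.30 and 2.96 CPM in K36M mice, against 1.39 and 1.95 CPM in K9M mice, and Ifi35 had 1.56 and 1.36 CPM in K36M mice, against 0.622 and 0.724 CPM in K9M mice.

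Whether an effect differed between intestine and testes of the same mice was tested as an interaction, the intestine fold change minus that of testes. For K36M against WT, 1 gene was called with a positive difference and 6 with a negative one, where 10.1% of all genes were positive and 12.4% negative. Samhd1 had the largest negative difference of the 7, -2.78 ± 0.31 (adjusted p = 0.000504), with a fold change of -2.38 in intestine and 0.34 in testes. Ifi35 (-1.41), Irf1 (-1.43) and Trim25 (-0.97) followed, and Ifih1 and Adar were also negative. Ifi35 thus fell in K36M intestine by 0.61 on the log2 scale while its estimate in testes was 0.75, which did not pass. Cxcl10 was the positive gene, 3.23 ± 0.95 (adjusted p = 0.0345). Over 17 alternatives, Cxcl10 and Adar each lost the call in 10, Trim25 and Ifih1 in 4 and Irf1 in 2. With the mouse as a block, 2 genes were positive and 8 negative. With library size alone, 12.0% of all genes were positive and 8.51% negative, and 1 of the 39 was positive and 3 negative. Leaving out the intestine of mouse K36M.1485 or of mouse K36M.1553 gave more calls among the 39. Leaving out the testes of mouse K36M.1553 or of either WT mouse gave fewer. These changes were not set against the calls over all genes. For K9M against WT, 0 genes were called either way by edgeR, where 0.0691% and 0.0543% of all genes were, with 3 of the 39 at an unadjusted p under 0.05, and DESeq2 called 0.

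The genes around the pathway gave few calls in K9M mice. Of 20 ligand genes written down, 11 were found and none had enough counts to be tested in any tissue. Ifnb1 and the 5 Ifna genes found had 0 counts in every bone marrow and intestine library, which allows up to 3 counts in each. Ifne had 1 count in 1 intestine library and 1 to 5 in each testes library. Interferon gamma had 1 or 2 counts in 4 intestine libraries and 0 in the other libraries. Ifnk, a keratinocyte interferon, had 0 to 6 counts over the 18 libraries. The type III genes Ifnl2 and Ifnl3 had 2 counts and 1 count in the intestine of mouse K36M.1553. Both had 0 in the other intestine libraries and in bone marrow, and 0 or 1 in each testes library. Among receptors and their kinases, sensors, regulators, other inducible genes, antigen presentation and retroelement silencing, K9M mice showed calls in bone marrow only. Those were 1 of 16 upstream sensing genes, 1 of 49 other inducible genes and 2 of 16 genes of MHC class I and the immunoproteasome, all lower, where 0.589% of all genes rose and 0.418% fell. The RNA sensor Tlr3 had 0.403 and 0.717 CPM in K9M mice, against 3.66 and 3.82 CPM in WT mice (-2.70 ± 0.35, adjusted p = 0.0144). H2-Q7, a class Ib antigen gene with near-identical neighbours, had 67.7 and 63.0 CPM in K9M mice, against 112 and 105 CPM in WT mice (-0.73 ± 0.08, adjusted p = 0.00674), and H2-Q6 fell too (-0.69 ± 0.10, adjusted p = 0.019). Ifi205, a DNA-binding protein of the interferon-inducible family, had 0.173 and 0.0957 CPM in K9M mice, against 2.86 and 2.35 CPM in WT mice (-4.25 ± 0.50, adjusted p = 0.0146). None of the 14 genes of H3K9 methylation and retroelement silencing passed in K9M mice of any tissue.

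In K36M bone marrow, the antigen presentation list had 0 higher and 8 lower of 16, the other inducible genes 4 higher and 17 lower of 49, and upstream sensing 2 higher and 8 lower of 16, where 23.5% of all genes rose and 24.6% fell. The kinase gene Ikbke had 32.9 and 33.9 CPM in K36M mice, against 99.9 and 91.1 CPM in WT mice (-1.51 ± 0.08, adjusted p = 3e-05), and Tlr3 fell as it did in K9M (-2.68 ± 0.35, adjusted p = 0.000696). H2-Q7 had 62.2 and 67.8 CPM in K36M mice, against 112 and 105 CPM in WT mice (-0.74 ± 0.08, adjusted p = 0.000312). Ifi205 had no count in either K36M mouse and Cxcl9, a chemokine gene, 0 and 0.0554 CPM, against 2.86 and 2.35 CPM and 1.50 and 1.56 CPM in WT mice. Receptors and kinases had 0 higher and 2 lower of 11, Ifnar1 (-0.31 ± 0.09, adjusted p = 0.0269) and Ifngr1 (-0.27 ± 0.08, adjusted p = 0.0273). Negative regulators had 2 higher and 3 lower of 12, among them Nlrc5 (-0.70 ± 0.14, adjusted p = 0.00715) and the signal inhibitor Socs3 (1.45 ± 0.34, adjusted p = 0.0103). Nlrc5 is also on the antigen presentation list, so its fall is counted in both lists. The silencing list had 8 higher and 2 lower of 14, with the H3K9 methyltransferase Setdb1 at 0.57 ± 0.08 (adjusted p = 0.0011) and Ehmt1 at -0.47 ± 0.07 (adjusted p = 0.00157).

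In K36M intestine, the other inducible genes had 2 higher and 11 lower of 43, upstream sensing 2 higher and 5 lower of 14, and antigen presentation 1 higher and 4 lower of 16, where 11.7% of all genes rose and 11.7% fell. The T-cell chemokine gene Ccl5 had 9.26 and 4.98 CPM in K36M mice, against 43.4 and 51.3 CPM in WT mice (-2.74 ± 0.33, adjusted p = 0.00415), beside the lower sums of T and NK cell markers given above. Pml fell as well (-1.10 ± 0.17, adjusted p = 0.0084). Ikbke had 20.4 and 12.8 CPM in K36M mice, against 50.3 and 64.3 CPM in WT mice (-1.79 ± 0.26, adjusted p = 0.00653), and Unc93b1, which carries the Toll-like receptors to endosomes, was lower too (-1.03 ± 0.16, adjusted p = 0.0084). Psmb8, a subunit of the immunoproteasome, had 35.2 and 44.4 CPM in K36M mice, against 91.3 and 88.7 CPM in WT mice (-1.18 ± 0.17, adjusted p = 0.00638), with its activator Psme2 at -1.01 ± 0.15 (adjusted p = 0.00765). Among receptors only Jak2 passed of 11 (-0.68 ± 0.18, adjusted p = 0.0378), among regulators Ptpn6 and Socs3 fell of 12, and of the silencing genes Fam208a alone fell (-0.73 ± 0.18, adjusted p = 0.0308).

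In K36M testes, where 25.7% of all genes rose and 23.8% fell, receptors and kinases had 8 higher and 1 lower of 11, with a median log2 fold change of 1.03. The interferon gamma receptor gene Ifngr2 had 91.7 and 106 CPM in K36M mice, against 29.8 and 29.6 CPM in WT mice (1.73 ± 0.13, adjusted p = 0.00241), and Il10rb, shared by the type III receptor, had 16.3 and 17.6 CPM in K36M mice, against 4.86 and 5.07 CPM in WT mice (1.77 ± 0.15, adjusted p = 0.00241). Antigen presentation had 6 higher and 0 lower of 16, led by H2-Q4 (1.54 ± 0.25, adjusted p = 0.00486) and Tapbp (0.61 ± 0.12, adjusted p = 0.00741). Upstream sensing had 6 higher and 2 lower of 16, with Tlr7 at 1.99 ± 0.34 (adjusted p = 0.00549) and Irf3 at -1.12 ± 0.19 (adjusted p = 0.00562). The other inducible genes had 6 higher and 5 lower of 38, with Ifitm2 at 1.43 ± 0.21 (adjusted p = 0.00404) and Trim34a at 1.81 ± 0.33 (adjusted p = 0.00643). Of the 12 regulators, the phosphatase gene Ptpn11 (1.62 ± 0.15, adjusted p = 0.00241) and Nlrx1 (1.18 ± 0.29, adjusted p = 0.0173) rose and 0 fell. Of the 14 silencing genes, 1 rose and 9 fell, among them Fam208a, a subunit of the HUSH complex, with 55.2 and 41.2 CPM in K36M mice, against 119.6 and 118 CPM in WT mice (-1.30 ± 0.17, adjusted p = 0.0031), and Trim28 (-0.97 ± 0.16, adjusted p = 0.00557). Tested as an interaction between intestine and testes, receptors and kinases gave 0 positive and 5 negative calls of 11, Jak2 at -2.00 ± 0.26 (adjusted p = 0.00096) among them, and antigen presentation 0 and 8 of 16, where 10.1% of all genes were positive and 12.4% negative.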

How the data were processed

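Raw gene counts of 18 libraries were deposited. The submitters' processing notes name STAR, HTSeq and mm9; versions, annotation and use of strand are not given in the sources used here, so overlapping and antisense genes cannot be told apart, and genes with near-identical copies (Oas1a, Ifit1, Ifit3, the GBP genes) are uncertain. Of each file, 37620 gene IDs were used and 5 entries that name no gene were left out (9.89% to 26.0% in no feature, 15.3% to 29.1% not unique, 2.21% to 4.17% ambiguous). Symbols and exon lengths came from GENCODE M21 on GRCm38, and promoters from RefSeq.

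Each tissue was fitted alone in R 4.3.3 with edgeR 4.0.16 (TMM, filterByExpr, robust quasi-likelihood, 3 group means, 3 residual degrees of freedom), with Benjamini-Hochberg adjustment at 0.05. Interactions used the 12 libraries of intestine and testes, and WT tissue contrasts all 18. CPM and RPKM were computed from the counts. Alternatives used DESeq2 1.42.0, limma-voom (limma 3.58.1), other scalings and filters, fewer or all genotypes, each library left out, and the mouse as a block. Where a group kept 1 library, its spread was taken from the other groups. The block comes from the mice in the labels; the correlation between tissues of each mouse's deviation from its group was -0.0614 in K36M, 0.0723 in K9M and 0.0298 in WT. The fits were tested on simulated counts. Replicates were separate mice and differed by more than counting noise (chi-square per degree of freedom 2.26 to 59.1). Counts of 0 allow up to 3, for counting error only.

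The members, lists and tests were chosen with earlier results of these data known. Named with every library's value were, per comparison, up to 6 genes each way by adjusted p, or 3 where none passed, the 8 largest WT differences in bone marrow and the 5 highest RPKM per tissue; for interactions and WT tissues up to 4 each way; for pathway lists up to 2 for each mutant against WT. Other genes are named for contrast, chosen after their values were seen.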

Additional observations from a re-analysis of the deposited data

Results flagged for a closer look

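The effect of K36M against WT differed between intestine and testes in 7 of the 39 genes by edgeR's test of the interaction, taken as the log2 fold change in intestine minus that in testes. The difference was -2.78 for Samhd1, -1.43 for Irf1, -1.43 for Ifih1, -1.41 for Ifi35, -1.02 for Adar, -0.97 for Trim25 and 3.23 for Cxcl10. Of 17 alternatives, Samhd1 and Ifi35 kept their call in all, Irf1 lost it in 2, Trim25 and Ifih1 in 4, and Cxcl10 and Adar in 10. Cxcl10 rested in testes on 2 and 3 counts in the K36M mice.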

How the results depend on the processing

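The counts here are those of the 39 genes called by edgeR. Calls over all genes also moved with the settings, and the ranges for the 39 genes were not set against them. Leaving out each library in turn gave 0 to 2 calls for K9M against WT in bone marrow, 6 to 16 for K36M against WT, and 6 to 20 for K36M against K9M. In intestine the ranges were 0 to 6, 1 to 23 and 1 to 26 for the same comparisons, and in testes 0 to 0, 3 to 15 and 0 to 16. For the interaction of K36M with tissue the range was 2 to 17. Between WT tissues it was 34 to 36 for intestine against testes, 30 to 31 for bone marrow against intestine and 30 to 33 for bone marrow against testes. With all 18 libraries in a single fit, calls for K36M against WT numbered 4 in bone marrow and 6 in testes. Those for K36M against K9M numbered 4 and 8, and those for K9M against WT in intestine 3. Over all genes, that fit called 3635 and 4482 in bone marrow for the K36M comparisons, against 7017 and 7850 in the main fit. For K9M against WT in intestine it called 453 of all genes, where the main fit called 30. Without a filter on low counts, intestine gave 17 for K9M against WT, 18 for K36M against WT and 23 for K36M against K9M. Over all genes it gave 1180, 4834 and 5010, against 30, 3323 and 3570 in the main fit. With the 2 genotypes alone, K36M against K9M in bone marrow gave 20, and in intestine K9M against WT gave 9 and K36M against WT 3. Over all genes these fits gave 8356, 202 and 1890, against 7850, 30 and 3323 in the main fits. DESeq2 gave 1 for K9M against WT in bone marrow and 3 in intestine, where it called 339 and 363 of all genes. Library size alone gave 4 for the K36M interaction, and moved the median ratio between mice to 0.20 in WT intestine, -1.89 in K36M intestine and -0.11 in K36M testes. The cause of these shifts was not tested.

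With the mouse as a replicate block, the interaction of K36M with tissue gave 10 calls in place of 7, that of K9M 0, and WT intestine against WT testes 36, with a median log2 difference of 4.72. Over single genes and comparisons, settings that leave out a library gave 574 values, of which 425 kept their direction and side of the threshold, 144 lost a call, 5 gained it and 0 changed direction. Other settings gave 734 values, with 664 kept, 57 lost, 13 gained and 0 of opposite direction. Both sets cover only genes picked for a call or for the smallest p in a comparison. The absence of a changed direction among them says little about the other genes. The median over the 39 did change sign for K36M against WT in bone marrow, from -0.19 to 0.15 without mouse WT.1262. In testes, at 16122101 to 20993726 gene counts a library, 5 of the 39 genes had too few counts to be tested, and with 2 mice per group the spread rests on 3 residual degrees of freedom.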
